A study of Mus musculus with 25 samples.

Results

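Broad promoter H3K4me3 domains of primary myoblasts are the H3K4me3 peaks that spanned at least 5500 bp and overlapped by at least 1 bp the region within 1 kb of the transcription start site (TSS) of a curated RefSeq transcript. They were chosen by the measured width of the H3K4me3 peak, so this width describes the domains and is no finding. The rule kept 1431 of 30763 H3K4me3 peaks, a share of 4.65% (95% Wilson interval, 4.42 to 4.89%), and of 14605 H3K4me3 peaks at promoters. The series addresses the role of Spin1 in skeletal muscle and holds 25 samples, of which the Spin1 and the H3K4me3 ChIP-seq libraries of primary myoblasts were used here. Both come from cultures of myoblasts that were obtained from the limb muscle of C57BL/6 mice (C57BL/6 N in the methods) at an age of 10 days by preplating, which removes quickly adhering cells such as fibroblasts, and that were grown until most of the dish was covered. The labels name no mutant allele and no treatment. The antibody label of the H3K4me3 library reads H3K4me, while its title and the methods name H3K4me3. The methods describe 1 preparation of chromatin that was split between the antibodies. Each antibody gave 1 library, and both peak lists were called against the same input DNA, so all intervals below cover counting error only and no difference has a replicate check. The read depth behind a peak is unknown, because the lists hold positions and scores without read counts.

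Trimethylation of lysine 4 on histone H3 (H3K4me3) marks the first nucleosomes of active promoters and is written by SET1/MLL complexes, which are drawn to unmethylated CpG islands. At most promoters it forms a narrow block around the TSS, whereas at some genes, often those that define the identity of a cell, it extends far into the gene body. Spin1 is a reader of H3K4me3 with Tudor-like domains. The distribution of Spin1 over such extended domains was described here from the Spin1 peaks, which come from a library that the selection did not use.

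Short stretches of sequence are shown for 4 domains, since the part of a domain under Spin1 differed in CpG content from the part without Spin1. For each domain, the first line is the 100 bases without annotated exon nearest to the center of the widest Spin1 peak, and the second is the same for the longest stretch without a Spin1 peak. The genes are Pax7 and Myod1, transcription factors of muscle precursors and myoblasts, Nr2f2, an orphan nuclear receptor of mesenchyme, and Thbs1, which encodes the matrix protein thrombospondin 1. On GRCm38, the Pax7 stretches lie on the minus strand at chr4:139831754-139831853 and chr4:139825062-139825161, both in an intron of Pax7. The Myod1 stretches lie on the plus strand at chr7:46377300-46377399, in an intron of Myod1, and at chr7:46380029-46380128, outside curated transcripts. Those of Nr2f2 lie on the minus strand at chr7:70358390-70358489, in an intron of Nr2f2, and at chr7:70348140-70348239, outside curated transcripts. Those of Thbs1 lie on the plus strand at chr2:118113769-118113868 and chr2:118120347-118120446, both in an intron of Thbs1. Capitals mark CpG dinucleotides.
Pax7, Spin1 peak: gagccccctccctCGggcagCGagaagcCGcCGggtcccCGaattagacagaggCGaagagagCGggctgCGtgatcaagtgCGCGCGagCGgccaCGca
Pax7, no Spin1 peak: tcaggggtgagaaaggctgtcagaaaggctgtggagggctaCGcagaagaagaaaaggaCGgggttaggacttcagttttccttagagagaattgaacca
Myod1, Spin1 peak: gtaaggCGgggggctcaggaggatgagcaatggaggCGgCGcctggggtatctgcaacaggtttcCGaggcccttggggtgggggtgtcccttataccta
Myod1, no Spin1 peak: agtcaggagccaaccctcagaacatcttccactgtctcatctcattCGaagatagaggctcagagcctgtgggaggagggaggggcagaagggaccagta
Nr2f2, Spin1 peak: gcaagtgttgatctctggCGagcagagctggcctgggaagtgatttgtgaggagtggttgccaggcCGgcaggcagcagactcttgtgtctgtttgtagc
Nr2f2, no Spin1 peak: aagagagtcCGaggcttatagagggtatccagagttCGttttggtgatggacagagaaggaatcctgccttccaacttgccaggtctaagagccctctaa
Thbs1, Spin1 peak: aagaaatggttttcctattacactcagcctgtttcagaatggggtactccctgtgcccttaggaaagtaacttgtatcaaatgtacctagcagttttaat
Thbs1, no Spin1 peak: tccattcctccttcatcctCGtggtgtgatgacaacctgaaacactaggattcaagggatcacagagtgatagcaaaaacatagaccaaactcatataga
The Pax7 pair held 13 CpG under Spin1 and 2 without Spin1, and the Myod1 pair held 4 and 1. The Nr2f2 stretches held 2 CpG each, and those of Thbs1 held 0 under Spin1 and 1 without, so single windows did not all follow the median over the domains that is given further on.

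A second set of sequences compares domains without any Spin1 peak with domains of developmental transcription factors whose promoter lies inside a Spin1 peak. Shown are the 250 bases upstream of the TSS from RefSeq (GRCm38.p6), none of which overlaps an annotated exon. Nkx2-3 and Nkx1-1 encode homeobox factors and had no Spin1 peak. Runx1, a Runt domain factor, and Nr2f1, an orphan nuclear receptor, are the widest domains of the lists of muscle and mesoderm factors whose upstream window was held by the RefSeq table, free of exons and covered in full by a Spin1 peak. The windows lie at chr19:43612075-43612324 on the plus strand for Nkx2-3, and on the minus strand at chr5:33434091-33434340 for Nkx1-1, at chr16:92697330-92697579 for Runx1 and at chr13:78198874-78199123 for Nr2f1. Capitals again mark CpG.
Nkx2-3, upstream of the TSS: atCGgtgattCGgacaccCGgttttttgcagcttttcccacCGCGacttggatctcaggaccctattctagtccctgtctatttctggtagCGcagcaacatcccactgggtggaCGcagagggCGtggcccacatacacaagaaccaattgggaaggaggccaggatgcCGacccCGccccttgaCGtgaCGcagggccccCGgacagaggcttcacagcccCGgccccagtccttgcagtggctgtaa
Nkx1-1, upstream of the TSS: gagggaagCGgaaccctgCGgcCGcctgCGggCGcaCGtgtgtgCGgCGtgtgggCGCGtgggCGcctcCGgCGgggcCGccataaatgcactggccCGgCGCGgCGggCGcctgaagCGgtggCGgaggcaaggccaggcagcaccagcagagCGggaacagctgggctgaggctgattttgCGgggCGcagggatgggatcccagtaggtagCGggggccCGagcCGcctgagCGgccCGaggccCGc
Runx1, upstream of the TSS: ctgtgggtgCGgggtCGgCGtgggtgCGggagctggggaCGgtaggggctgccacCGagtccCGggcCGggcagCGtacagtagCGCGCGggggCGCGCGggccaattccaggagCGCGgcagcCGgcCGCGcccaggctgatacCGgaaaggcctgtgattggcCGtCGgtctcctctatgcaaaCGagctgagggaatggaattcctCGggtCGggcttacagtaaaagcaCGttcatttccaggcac
Nr2f1, upstream of the TSS: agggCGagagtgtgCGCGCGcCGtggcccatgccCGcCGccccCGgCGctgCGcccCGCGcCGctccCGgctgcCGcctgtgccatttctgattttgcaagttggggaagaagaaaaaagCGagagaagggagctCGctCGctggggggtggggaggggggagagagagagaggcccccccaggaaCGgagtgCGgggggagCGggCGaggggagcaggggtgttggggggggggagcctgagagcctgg
The promoters without Spin1 held 14 and 30 CpG, and those inside a Spin1 peak held 27 and 22. The median over all 32812 promoters of the RefSeq table was 6 CpG in 250 bases (quartiles, 2 to 16). The 14 CpG of Nkx2-3 lay within these quartiles, and the counts of Nkx1-1, Runx1 and Nr2f1 lay above them.

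The 1431 domains covered 10.4 Mb, which is 15.4% of the length of all H3K4me3 peaks. Their median width was 6596 bp (quartiles, 5921 to 7837 bp) and the widest spanned 32706 bp, whereas the 13174 narrower promoter peaks had a median width of 2854 bp. The 5 domains just inside the threshold were those of Adipor1 with 5500 bp, Med14/Gm14634 and Alkbh1/Nrp/Slirp with 5501 bp each, and Trim47 and Tob1 with 5502 bp each. Just outside were Kpna4 and Dedd2/Zfp526/Mir7048 with 5496 bp each, Sema3a with 5494 bp, Cdk8 with 5492 bp and Mn1 with 5491 bp. These 5 peaks held 1 or 2 Spin1 peaks each, as did the 5 just inside. The score of a peak is 10 times the negative log10 of its p-value against the input and accumulates at 3100. All domains except 1 had an H3K4me3 score of at least 3100, so the score gives them no order. The exception was Erdr1 on chromosome Y, with a score of 907.68, a gene at the pseudoautosomal end of the chromosome whose sequence is repeated, so that the placement of reads there is uncertain.

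The domains lay at the promoters of 2057 genes, of which 1697 are protein-coding. This is 7.86% of 26180 curated genes and 12.7% of the 16207 genes whose promoter carried any H3K4me3 peak, and these percentages are the background for the gene groups below. A single gene was found at 937 domains or 65.5% (63.0 to 67.9%), against 86.0% (85.4 to 86.6%) of the narrower promoter peaks. The remaining domains lay at 2 genes (394 domains), 3 genes (72) or at least 4 genes (28). Promoters on both strands were present in 410 domains or 28.7% (26.4 to 31.0%) and in 12.6% (12.1 to 13.2%) of the narrower peaks. A wider peak meets more promoters through its length, and the part of length in these differences was not tested. For each domain, the curated TSS nearest to the center was taken as the anchor, and it belonged to a protein-coding gene in 1299 domains, to a long noncoding RNA in 70, to a microRNA in 28 and to a small nucleolar RNA in 23. In the 937 domains with 1 gene, the H3K4me3 peak reached a median of 1660 bp upstream (1212 to 2428 bp) and 4861 bp downstream of the anchor TSS (4100 to 5823 bp). The longer side was downstream in 91.5% (89.5 to 93.1%) of them and in 87.6% (86.9 to 88.1%) of the narrower peaks with 1 gene. The whole anchor transcript was covered in 165 of 1299 protein-coding domains or 12.7% (11 to 14.6%), against 2.61% (2.34 to 2.91%) of narrower peaks.

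The 15 widest domains lay at genes of different functions. The widest lay on chromosome 15 over Hoxc9, Hoxc10 and Hoxc11, homeobox genes of positional identity, with Gm36878 and Mir196a-2, and reached from 102952073 to 102984778 on GRCm38. It was followed by the domain of Atp5d, Cirbp and Midn with 29360 bp, that of Smad7, an inhibitor of TGF-beta signaling, and Gm20544 with 25285 bp, and that of Hoxa7, Hoxa9, Hoxa10 and Mir196b with 22615 bp. Plec, which encodes the cytoskeletal linker plectin, had 22300 bp and Erdr1 21446 bp. The domain of Neat1, the RNA scaffold of paraspeckles, spanned 18965 bp and that of Nr2f2 18699 bp. Arhgef2, a guanine nucleotide exchange factor, had 17755 bp, Aopep, which encodes an aminopeptidase, 17684 bp, and Lmna, which encodes the nuclear lamins A and C, 17527 bp. Pax7, the defining transcription factor of muscle stem cells, had a domain of 17266 bp from 139819433 to 139836698 on chromosome 4. The remaining domains were those of Zeb2/Zeb2os with 16086 bp, Bloc1s1/Cd63/Rdh5 with 16027 bp and Myl12a/Myl12b with 15431 bp. All 15 held Spin1, with 2 to 8 Spin1 peaks each and between 47.1% (Aopep) and 94.9% (Erdr1) of their length covered.

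Spin1 was found in nearly every broad domain. At least 1 Spin1 peak overlapped 1420 of 1431 domains or 99.2% (98.6 to 99.6%), against a background of 76.1% (75.4 to 76.8%) of the 13174 narrower promoter peaks. Since a wide peak can meet a Spin1 peak through its length alone, a window of fixed size was also used. Within 1 kb of the anchor TSS, Spin1 was present in 98.3% (97.5 to 98.9%) of the domains and in 75.7% (74.9 to 76.4%) of the narrower peaks. The difference was 22.6 percentage points (21.6 to 23.6). With the 50% of Spin1 peaks that have the highest score, the difference was 42.3 percentage points. The anchor TSS itself lay under a Spin1 peak in 1379 domains or 96.4%. Occupancy of the TSS window was 24.1% (22.6 to 25.6%) for promoter peaks under 2000 bp, 84.3% (83.1 to 85.3%) from 2000 to 3000 bp and 95.5% from 3000 to 4000 bp. From 4000 to 5500 bp it was 97.5% (96.8 to 98.1%), and in the domains from 5500 to 7000 bp it was 98.5% (97.4 to 99.1%). Peaks under 3000 bp lay far below the domains, whereas the intervals of the last pair of classes overlap.

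The number of Spin1 peaks per domain was 1 in 888 domains, 2 in 409, 3 in 94, 4 in 21, 5 in 5, 6 in 1 and 8 in 2. At least 2 Spin1 peaks were present in 532 domains or 37.2% (34.7 to 39.7%), against a background of 3.73% (3.42 to 4.07%) of the narrower peaks. The share in the domains was 6.15% with the 50% of Spin1 peaks that have the highest score, and 19.9% with Spin1 peaks joined over gaps of up to 500 bp. With all Spin1 peaks as called, it grew with the width of the domain, from 26.2% between 5500 and 7000 bp to 44.9% between 7000 and 9000 bp and 71.9% from 9000 bp. Per length of H3K4me3, the domains held fewer Spin1 peaks than promoter peaks of 2000 to 5500 bp. In promoter peaks under 2000 bp there were 1.81 Spin1 peaks per 10 kb, from 2000 to 3000 bp 3.41, from 4000 to 5500 bp 2.37, and in the classes of broad domains, by rising width, 2.10, 1.98 and 1.92. The domains with most Spin1 peaks were those of Hoxc9 to Hoxc11 and of Atp5d/Cirbp/Midn with 8 each, Pax7 with 6, and Plec and Neat1 with 5. Col1a1, a type I collagen gene, Nfix, a nuclear factor I gene, and Aopep also had 5.

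The share of the domain length under Spin1 was close to that of narrower peaks. The median over the domains was 65.1% (quartiles, 55.3 to 74.4%), and 65.2% over the 1420 domains with Spin1, against 65.9% (55.5 to 75.3%) over the 10029 narrower promoter peaks with Spin1. From 2000 bp upwards, the class medians over peaks with Spin1 lay between 64.7 and 66.7%. In absolute length, a median of 4390 bp per domain was covered. The 2119 Spin1 peaks in broad domains made up 12.4% (11.9 to 12.9%) of all 17106 Spin1 peaks and the part inside the domains 20.3% of the length of all Spin1 peaks. Their median width was 3285 bp (1367 to 4373 bp), against 2010.5 bp (1434 to 2596 bp) for Spin1 peaks in narrower promoter peaks. A Spin1 score of at least 3100 was reached by 58.3% of them (56.2 to 60.4%), against 37.5% (36.6 to 38.4%). Spin1 peaks rarely crossed the border of the domain, since 1990 of 2119 or 93.9% (92.8 to 94.9%) lay wholly inside. A wider H3K4me3 peak gives room for wider Spin1 peaks, and the part of length in the difference of Spin1 peak width was not tested.

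**Figure D1:**
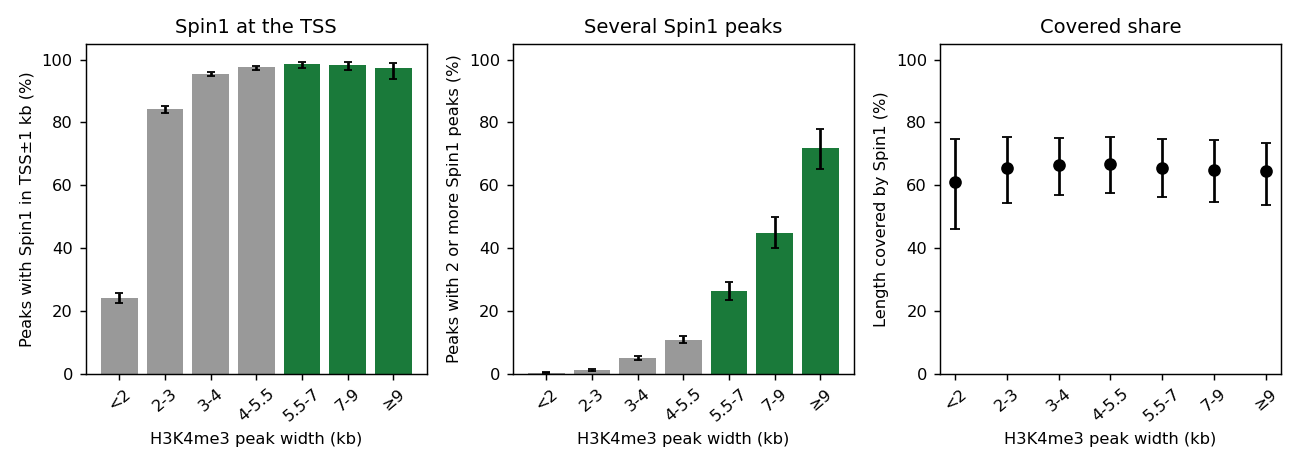
Spin1 in promoter H3K4me3 peaks by peak width in kb, with the broad domains in dark bars from 5.5 kb. Left and middle, share of peaks with Spin1 within 1 kb of the anchor TSS and with at least 2 Spin1 peaks, with 95% Wilson intervals. Right, median share of the peak length under Spin1 over peaks with Spin1, with quartiles. The left share levels off above 3 kb, the middle share reaches 71.9% in the widest class, and the right medians stay between 61.1 and 66.7%.

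Spin1 peaks were placed asymmetrically around the TSS. With positions downstream counted as positive, the median Spin1 center lay at 721 bp over all domains, and at 983.5 bp (quartiles, 377 to 2290 bp) in domains with 1 gene, which can still hold several TSSs. In narrower peaks with 1 gene the median was 339.5 bp (150 to 568 bp). The H3K4me3 peak itself reached a median of 4861 bp downstream in the former and 1770 bp in the latter. The part of length in the difference of the centers was not tested. The share of centers downstream was 83.3% (81.3 to 85.2%) in the domains and 86.8% (86.1 to 87.5%) in narrower peaks. Within the 934 domains that have 1 gene and at least 1 Spin1 peak, the part of H3K4me3 beyond the outermost Spin1 peak was shorter upstream than downstream. The median was 401 bp upstream (185 to 681 bp) and 1573 bp downstream (911.5 to 2315 bp), and the longer margin was upstream in 146 domains or 15.6% (13.4 to 18.1%). The H3K4me3 peak itself reached less far upstream, with medians of 1660 bp upstream and 4861 bp downstream over the 937 domains with 1 gene. Margins were not set against this reach and were not computed for narrower peaks. Near 1950 bp downstream of the TSS, Spin1 was called in 51.7% of 1-gene peaks of 4000 to 5500 bp and in 76.6, 86.4 and 92.1% of the classes of broad domains, by rising width. Near 3950 bp downstream, these shares were 1.20, 12.4, 37.4 and 58.8%. H3K4me3 was called there in 12.5, 73.4, 90.5 and 94.7%, so Spin1 fell behind H3K4me3 toward the distal end in every class.

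**Figure D2:**
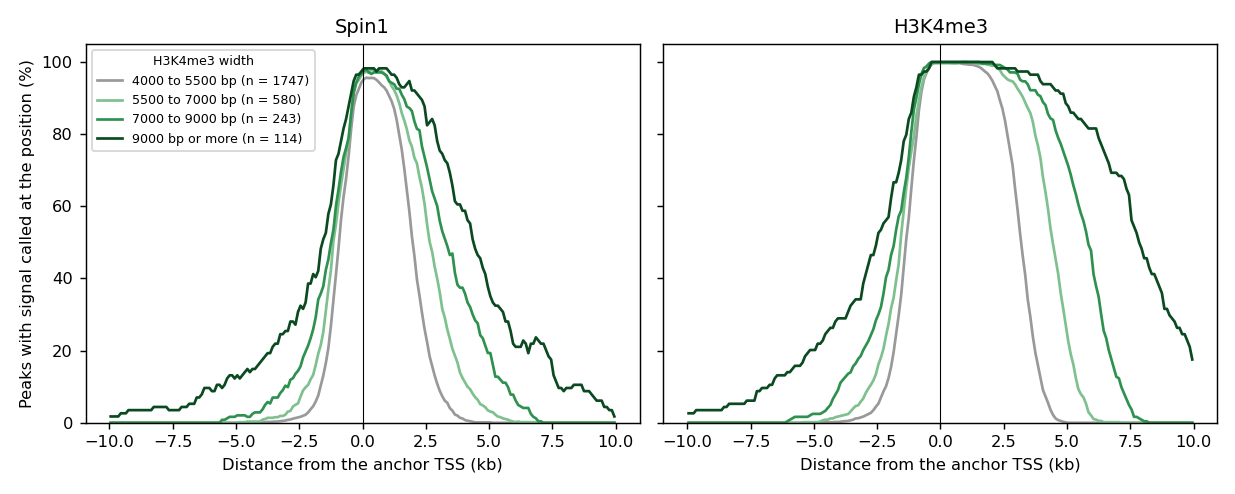
Share of 1-gene promoter peaks in which a Spin1 peak (left) or the H3K4me3 peak itself (right) was called at each distance from the anchor TSS in kb, in bins of 100 bp, for 4 classes of H3K4me3 width. Spin1 is highest within 350 bp downstream of the TSS in every class, at 95.6 to 98.2%, and its downstream flank lies closer to the TSS than that of H3K4me3; the H3K4me3 curves follow from the selection by width.

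Spin1 peaks of the same domain differed in width, and over all domains those away from promoters had the smaller median width. In the 532 domains with at least 2 Spin1 peaks, the widest had a median of 3582.5 bp and the second widest 1022 bp. How often the widest lay at a promoter was not counted. Neighboring Spin1 peaks of a domain were separated by a median gap of 396 bp (149 to 1016 bp). Of the 2119 Spin1 peaks, 508 or 24.0% (22.2 to 25.8%) did not touch the region within 1 kb of any curated TSS. These had a median width of 793 bp, against 3818 bp for those at promoters. Of the 508 peaks, 80.5% (76.8 to 83.7%) were located downstream of the anchor TSS, and their centers lay a median of 3800 bp away from it (2753 to 4939 bp). The Pax7 domain is an example. Its widest Spin1 peak, 5404 bp with a score of 3100, contained the TSS and was centered 1165 bp downstream. A further Spin1 peak of 935 bp was centered 3140 bp upstream, and 4 peaks of 683, 937, 685 and 1922 bp were centered 5473, 6430, 9156 and 10854 bp downstream. Their scores were between 102.78 and 676.39, below that of the peak at the TSS. In the Hoxc domain, by contrast, 3 of the 8 Spin1 peaks had a score of 3100, with 8082, 4526 and 2915 bp.

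Only 11 of the 1431 domains had no Spin1 peak, and 5 of these lie in the array of 5S ribosomal RNA genes on chromosome 8. The 5S domains spanned 13363, 11633, 8550, 6888 and 6559 bp and hold near-identical tandem copies, so the placement of reads among them is uncertain. No Spin1 peak was present in any of the 5. Without them, 99.6% of 1426 domains had Spin1. The other 6 domains were those of Aida/Brox with 6462 bp, Pou3f3/Gm46091/Pantr1 with 6231 bp, Cbln1/Gm2694 with 5619 bp, Nkx2-3 with 5617 bp, Nkx1-1 with 5587 bp and Skor1 with 5545 bp. Pou3f3, Nkx2-3 and Nkx1-1 encode homeobox factors, Skor1 a transcriptional corepressor of the nervous system and Cbln1 a synaptic organizer. The lowest covered shares among domains with Spin1 were 10.6% in a second, downstream domain of Tcf7l2 with 7265 bp, 11.9% at Asb4 and at Lhx8/AI606473, 13.1% at Gnas and 14.5% at Zic1. Each held a single Spin1 peak of 671 to 908 bp with a score of 102.5 to 221.84. Zic1 and Lhx8 encode developmental transcription factors of the nervous system, and Gnas the stimulatory G protein subunit from an imprinted locus. The highest shares were 96.3% at Adgre5/Gm46046, 95.6% at Lrrfip1, 95.5% at Ier2, an immediate early gene, 94.96% at Rbm24, a muscle RNA-binding protein, and 94.95% at Anxa2/Mir3109. In each of these a single Spin1 peak with a score of 3100 filled the domain.

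Gene groups were then compared by the share of their genes with a broad domain, to be read against 7.86% of all curated genes. Of 649 different genes in 26 lists, 283 had a broad domain, and all 283 had at least 1 Spin1 peak in it. The lists hold well-known genes and were chosen with results of these data known, so their shares are a description. A domain at several genes was counted for each of them, and its whole width is given for each, also where the other genes are not named. Marker lists of cell types were counted in the same way. Their shares rest on the H3K4me3 width that the rule used, so they are no independent check of the cell type. Of 11 myoblast markers, 7 had a broad domain (63.6%, 35.4 to 84.8%), Pax7, Chrna1, Itga7, Myf5, Myod1, Des and Cdh15. The acetylcholine receptor gene Chrna1 had 9490 bp with 2 Spin1 peaks over 61.2%, and the laminin receptor gene Itga7 7648 bp with 1 peak over 69.8%. The remaining markers Vcam1, Ncam1, Fgfr4 and Myog carried H3K4me3 peaks of 4907, 4885, 4301 and 3773 bp. Of 11 fibroblast and fibro-adipogenic markers, 4 had a broad domain (36.4%, 15.2 to 64.6%), and this interval overlaps that of the myoblast markers. They were Pdgfra with 11546 bp, Tcf7l2 with 10980 bp, Col1a1 with 8411 bp and Osr2 with 7505 bp. The widths of the other fibroblast markers were 4857 bp at Osr1, 3500 bp at Dcn, 2014 bp at Ly6a, 1970 bp at Thy1 and 1068 bp at Lum, and no promoter H3K4me3 peak was listed at Dpt and Pi16. The part of non-myogenic cells in these domains was not tested. None of 6 endothelial and 6 blood cell markers had a broad domain (0 to 39.0% for each list), and their widest peaks were 2419 bp at Kdr and 571 bp at Cd68. Of 6 neural and Schwann cell markers only Tubb3 (5715 bp), and of 5 adipocyte markers only Cebpa (5640 bp), had one.

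Among the 4 myogenic regulatory factors, the basic helix-loop-helix factors that specify and drive muscle differentiation, Myf5 and Myod1 had a broad domain. At Myf5, an H3K4me3 domain of 7449 bp held Spin1 peaks of 1813 and 855 bp centered 446 and 1885 bp downstream of the TSS, and 35.8% of its length was covered. At Myod1, a single Spin1 peak of 4891 bp covered 77.9% of a domain of 6275 bp. Myog and Myf6, which act later in differentiation, had narrower peaks of 3773 and 2890 bp. Of 20 partners and inhibitors of these factors, 14 had a broad domain (70.0%, 48.1 to 85.5%). The widest were those of the repressor Zeb2 with 16086 bp, Mef2d, a partner of Myod1, with 14440 bp and 3 Spin1 peaks, and Id2, an inhibitor of helix-loop-helix factors, with 9784 bp and 1 Spin1 peak over 84.5%. The others were Id3, Hes1, Tcf4, Snai1, Zeb1, Mef2a, Snai2, Hey1, Id1, Twist1 and Twist2. Of 18 genes of the Pax, Eya, Meox, Pitx and related families of early muscle and developmental regulators, 10 were members (55.6%, 33.7 to 75.4%). Beside Pax7, Lbx1 had 9912 bp and 3 Spin1 peaks over 87.8%, and Six2 had 8161 bp and 1 over 59.5%. Further members included Six4, Six5, Pitx1, Meox2 and Eya4. Pax3, the paralog of Pax7, was just below the threshold with 5384 bp.

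The limb and mesoderm transcription factors had broad domains at 40 of 57 genes (70.2%, 57.3 to 80.5%). At Nr2f2, 2 Spin1 peaks of 8359 and 1262 bp covered 51.5% of the domain. Tbx15, a T-box factor, had 12426 bp with 1 Spin1 peak over 39.1%, Nfib, a nuclear factor I gene, 11321 bp with 2 over 56.6%, and Runx1 10630 bp with 1 over 78.8%. Further members included Nfia, Nr2f1, Klf6, Meis1, Ebf2, Tbx2, Ebf1, Meis2, Prrx1, Tbx3, Ebf3, Shox2, Irx5, Nfix, Tbx1, Runx2, Gli3, Sox11, Foxc2, En1, Foxf2, Sox4, Tead4, Foxc1, Tbx18, Sox8, Foxo1, Emx2, Zic1, Foxp1, Foxo3, Sox9, Irx3, Klf4 and Tead1. Nfix differed from most in that 5 Spin1 peaks of at most 887 bp covered 45.4% of its domain. Of 39 Hox genes, 10 lay in 5 broad domains (25.6%, 14.6 to 41.1%). Beside the Hoxc9 to Hoxc11 and Hoxa7 to Hoxa10 domains, these were Hoxa3/Hoxa6/Hoxa7/Mira with 11315 bp, Hoxa11 with 7954 bp and Hoxd3 with 5814 bp. In the domain of Hoxa7 to Hoxa10, the widest Spin1 peak in any broad domain, 15840 bp, contributed to a covered share of 88.8%. At Hoxd3 1 Spin1 peak covered 23.5%. The interval of the Hox genes treats genes that share a domain as separate and is therefore too narrow. Of 27 master regulators of other lineages, 3 had a broad domain (11.1%, 3.85 to 28.1%), the blood and endothelial factor Gata2 with 9843 bp and the adipogenic factors Cebpb with 5717 bp and Cebpa with 5640 bp. Runx1, Runx2, Sox9, Ebf1 and Zic1, which also act in other lineages, were counted with the limb and mesoderm factors. The share at regulators of other lineages therefore depends on how genes were assigned to the lists.

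**Figure D3:**
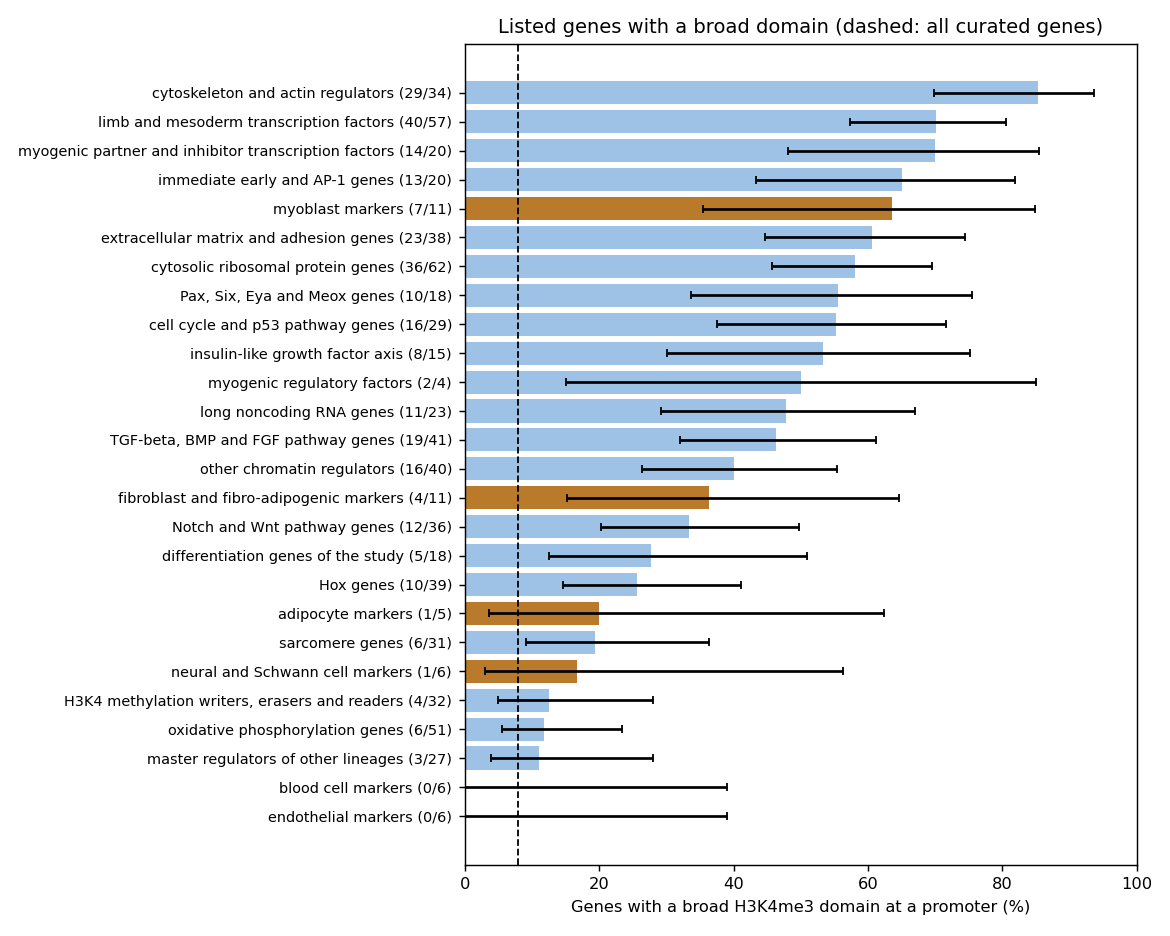
Share of the genes of each list with a broad H3K4me3 domain at a promoter, with 95% Wilson intervals and the counts beside each list name. Marker lists of cell types are drawn in the darker color, and the dashed line is the share of all curated genes, 7.86%; cytoskeletal genes are highest with 85.3%, and endothelial and blood cell markers are at 0.

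Among signaling genes, broad domains were counted in 4 lists. Of 41 TGF-beta, BMP and FGF pathway genes, 19 were members (46.3%, 32.1 to 61.3%). Smad7 had a Spin1 peak of 14422 bp. Ski and Skil, corepressors of Smad proteins, had 10322 and 10223 bp, and the corepressor Tgif1 10233 bp. The others were Spry2, Dusp6, Fgf7, Smad6, Dusp4, Dusp1, Spry4, Nog, Dusp5, Fst, Tgfb2, Bmpr2, Spry1, Tgfb3 and Smad3. Of 36 Notch and Wnt pathway genes, 12 were members (33.3%, 20.2 to 49.7%), with Tcf7l2, the ligand Wnt5a (9511 bp, 4 Spin1 peaks over 75.1%) and the receptor Fzd7 (9426 bp, 1 over 63.0%) as the widest. Jag1, Dll1, Rbpj, Fzd2, Notch3, Fzd4, Fzd1, Wnt9a and Ctnnb1 were the others. The insulin-like growth factor axis had 8 of 15 genes (53.3%, 30.1 to 75.2%). Its widest domains were those of the receptor substrates Irs1 with 11843 bp and Irs2 with 10073 bp and of the ligand Igf2 with 8352 bp, followed by Igf2bp3, Igf1r, Igfbp5, Igf2bp2 and Igf2bp1. Of 20 immediate early and AP-1 genes, 13 were members (65.0%, 43.3 to 81.9%). Fosl2 had 12157 bp with 2 Spin1 peaks over 70.0%, Jun 8314 bp with 1 over 69.3% and Myc 8211 bp with 1 over 83.8%. Junb, Egr3, Ier2, Atf3, Egr1, Srf, Fos, Egr2, Mycn and Fosl1 completed this group.

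Cytoskeleton and actin regulators had broad domains at 29 of 34 genes (85.3%, 69.9 to 93.6%). Plec and Lmna were followed by the actin monomer-binding profilin gene Pfn1 with 15319 bp, a domain shared with Eno3, Rnf167 and Slc25a11, and by Actn4, an alpha-actinin gene, with 12187 bp and 3 Spin1 peaks over 51.0%. Further members included Tpm1, Cnn2, Myh9, Vim, Flna, Zyx, Flnc, Cfl1, Ahnak, Tln1, Actb, Actg1, Tpm3, Tpm2, Tubb5, Actc1, Actn1, Tagln2, Cnn3, Tuba1b, Acta2, Vcl, Des and Tpm4. At Actc1, the cardiac and fetal muscle actin, 1 Spin1 peak covered 21.1% of 6970 bp, whereas at Actg1, a cytoplasmic actin, 1 covered 89.0% of 8023 bp. Of 38 extracellular matrix and adhesion genes, 23 were members (60.5%, 44.7 to 74.4%). Thbs1 had 14380 bp, of which a single Spin1 peak of 5651 bp covered 39.3%, Sparc 11124 bp with 1 Spin1 peak over 83.4% and the laminin gene Lamb1 8810 bp with 4 over 71.0%. At Col1a1, the 5 Spin1 peaks measured between 684 and 1468 bp. The others were Cd44, Col4a1, Col4a2, Col1a2, Itga7, Col5a2, Col5a1, Cd82, Itga5, Itgb1, Fn1, Col6a3, Lamc1, Fbn1, Col12a1, Tnc, Col3a1, Cdh15 and Cdh2. The list of sarcomere genes, which serve contraction in differentiated fibers, also held Eno3 and Atp2a1, which encode no part of the sarcomere. Genes of this list were members in 6 of 31 cases (19.4%, 9.19 to 36.3%). Actc1, Tpm1 and Tpm2 were counted with the cytoskeleton, so the shares of both lists depend on this assignment. Eno3, a muscle enolase, lay in the domain it shares with Pfn1. The slow troponin gene Tnnc1 lay in a domain of 10176 bp that is also at the promoter of Nisch. The others were the slow troponin gene Tnnt1 with 9102 bp, the calcium pump gene Atp2a1 with 7598 bp, and Mylpf and Myh3. Spin1 covered 50.6% at Tnnc1, 41.6% at Tnnt1 and 29.3% at Atp2a1, and the median of 46.1% over the 6 genes compares with 65.2% over all 2057 genes. Of 18 genes that the study names as deregulated in fetal muscle without Spin1, 5 were members, namely Eno3, Tnnc1, Atp2a1, Myf5 and Ankrd1, a titin-associated repeat protein, with 6811 bp.

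Housekeeping groups differed, and the intervals of ribosomal protein genes and genes of oxidative phosphorylation do not overlap. Of 62 cytosolic ribosomal protein genes, 36 had broad domains (58.1%, 45.7 to 69.5%), among them Rpl24 (11559 bp, 3 Spin1 peaks over 49.6%), Rpl35 (9139 bp, 3 over 78.7%) and Rpl12 (9029 bp, 2 over 63.6%). The domains of Rpl24, Rpl35 and Rpl12 also lie at promoters of other genes, Zbtb11, Arpc5l and Lrsam1 among them. Further members included Rplp0, Fau, Rpl14, Rps18, Rpl7, Rpl18, Rpl3, Rps2, Rpl37, Rps24, Rps3, Rpl4, Rps12, Rpl23, Rpl32, Rps7, Rps28, Rpl9, Rps4x, Rps19, Rps25, Rpl6, Rpl5, Rpl30, Rps10, Rpsa, Rpl41, Rps9 and Rps6. Genes of oxidative phosphorylation had 6 of 51 (11.8%, 5.51 to 23.4%), namely Atp5d in the domain with Cirbp and Midn, Ndufb10 in that of Rps2, Ndufs1 with 6657 bp, Atp5c1, Cox4i1 and Atp5b. Cell cycle and p53 pathway genes had 16 of 29 (55.2%, 37.5 to 71.6%). The inhibitor gene Cdkn1b had 14857 bp with 3 Spin1 peaks over 54.5%, the cyclin gene Ccnd1 8901 bp with 3 over 56.3% and the antiproliferative gene Btg1 8552 bp with 1 over 79.9%. Further members included Ccnd2, Cdkn1a, Mcl1, Bcl2l1, Trp53, Mdm2, Bbc3, Ccnd3, E2f3, Cdk6, Gadd45b and Gadd45g. Of 32 writers, erasers and readers of H3K4 methylation, 4 were members (12.5%, 4.97 to 28.1%). The methyltransferase gene Setd1b had 15225 bp with 2 Spin1 peaks over 75.2%, and Ing1, Kmt2d and Kmt2a had 6720, 6650 and 6470 bp. Spin1 itself had a narrower peak of 4447 bp with 1 Spin1 peak. Among 40 other chromatin regulators, 16 were members (40%, 26.3 to 55.4%), led by the H3K27 demethylase gene Kdm6b with 14263 bp and 3 Spin1 peaks over 59.2%, the bromodomain gene Brd2 with 13634 bp and 1 over 71.5% and the Polycomb gene Ring1 with 10846 bp and 3 over 63.3%. Further members included Arid1a, Arid1b, Chd2, Kdm2a, Jarid2, Ncor1, Tet3, Chd4, Bcor, Cbx2 and Ep300. Long noncoding RNA genes were members in 11 of 23 cases (47.8%, 29.2 to 67.0%). At Neat1, Spin1 peaks of 6380 and 4486 bp over and upstream of the TSS were followed downstream by 3 of 653 to 669 bp, and Malat1, a nuclear speckle RNA, had 12195 bp with 2 Spin1 peaks over 82.0%. Dnm3os, Mir22hg, Gas5, Hotair, Mir17hg, Snhg1, Tug1, Snhg18 and Kcnq1ot1 were the others.

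The domains were finally compared with the sequence beneath them. CpG content was a median of 2.96 per 100 bp (quartiles, 2.34 to 3.68), against 3.26 (2.63 to 4.06) in promoter peaks from 4000 to 5500 bp and 3.30 (2.62 to 4.25) from 2000 to 4000 bp. Within the domains, Spin1 lay on the CpG-rich part. In 1403 domains with at least 500 bp both under and outside Spin1 peaks, the part under Spin1 held a median of 3.92 CpG per 100 bp (3.10 to 4.96) and the part without Spin1 1.17 (0.793 to 1.63). The part under Spin1 was the richer in 1376 domains or 98.1% (97.2 to 98.7%). The part under Spin1 included the promoter in nearly all domains. With the region within 1 kb of every curated TSS left out, the medians were 1.58 (1.07 to 2.56) and 1.11 (0.749 to 1.59) in 1312 domains, and the part under Spin1 was the richer in 74.6% (72.2 to 76.9%). The covered share was 60.5% in the lowest of 4 equal groups of domains by CpG content (median 1.98 per 100 bp) and 64.7, 66.4 and 68.7% in the following groups, and the quartiles of these groups overlap widely. The 6 domains without Spin1 outside the 5S array had a median CpG content of 6.49 per 100 bp (5.69 to 7.32), above the upper quartile of all domains, so the lack of a Spin1 peak there did not go with a lack of CpG. At the TSS, 1060 anchor starts were matched in the RefSeq promoter table, and their 250 upstream bases held a median of 20 CpG (14 to 27). The median over all 32812 promoters was 6 (2 to 16), but these include promoters without H3K4me3. The upstream bases of narrower promoter peaks were not counted, so a difference from them was not tested.

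**Figure D4:**
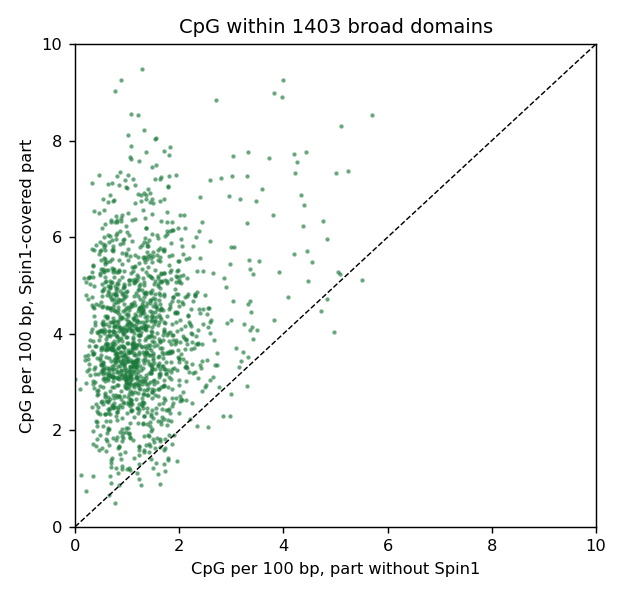
CpG dinucleotides per 100 bp in the part of each broad domain under Spin1 (vertical) against the part without Spin1 (horizontal), 1 point for each of 1403 domains. The dashed line marks equal content, and 1376 domains lie above it.

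The E-box CAGCTG, a palindrome that therefore reads the same on both strands and that Myod1 can bind, was searched as these letters. It occurred 0.577 times per kb under Spin1 and 0.560 times per kb in the rest of the domains. Outside the regions around the TSS, the values were 0.612 and 0.565 per kb. The letters were present in 13.5% (11.6 to 15.7%) of the 1060 matched promoters of 300 bases and in 16.3% (15.9 to 16.7%) of all promoters of the table. A match describes these letters in the window and is not a binding site.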

How the data were processed

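ChIP-seq peak lists of Spin1 and H3K4me3 in primary myoblasts, 1 library each, were used. Reads were aligned by the authors to the mm10 assembly (Bowtie2), and enriched regions were determined with MACS 1.4.2 relative to the input and filtered at a false discovery rate of 1%. For each peak, the deposited values are start, end and MACS score. Read counts, and therefore depth, are unknown. Peaks were compared with the 45756 curated transcripts (NM_ and NR_) of RefSeq annotation release 108.20200622 on GRCm38, the same build. Coordinates count from 1. Overlap meant at least 1 bp. No test was made, because each antibody has 1 library. Shares carry 95% Wilson intervals and medians carry quartiles, and both describe counting error or spread over peaks only. The members and the 26 gene lists were chosen with earlier results of these data known. Named domains are the 15 widest, the 5 with most Spin1 peaks, all without Spin1, the 5 lowest and 5 highest covered shares, the 5 on either side of the threshold, and the listed genes with a broad domain, a few of which are counted but not reported here by name. The domains whose sequences are shown were chosen after their values were seen. Overlap and coverage counting was tested on simulated peaks. Python 3.11.15, NumPy 2.4.6, pandas 2.3.3, SciPy 1.17.1 and matplotlib 3.10.9 were used. Alternatives of width, promoter window, transcript set, peak joining and Spin1 score were computed. The other 23 samples were not analysed here.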

Additional observations from a re-analysis of the deposited data

Results flagged for a closer look

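A set of 68 H3K4me3 peaks of at least 5500 bp lay outside the promoters of all curated transcripts and therefore outside the domains described above. They drew attention because the selection leaves them out although they are as wide. A Spin1 peak was present in 63 of them or 92.6% (83.9 to 96.8%). Their edges lay a median of 15158 bp from the nearest curated TSS (quartiles, 6749 to 36629 bp), and the widest spanned 26583 bp. In 50 of the 68, the GENCODE annotation places a transcript start within 1 kb.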

How the results depend on the processing

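No paired analysis was possible because only 1 library was made per antibody. Of 84 alternative values, 58 stayed within the interval of the value or within 1.5 times the count. Only the center position and the difference at the TSS could change sign, and neither did. The cause of a shift was not tested beyond what a setting does by construction. The number of domains (1431) was 330 at a width of 8000 bp. The share with Spin1 (99.2%) was 95.04% with the 50% of Spin1 peaks that have the highest score and 99.6% without the 5S rRNA domains, an alternative chosen after seeing the data. The share with at least 2 Spin1 peaks (37.2%) was 31.2, 43.8 and 63.0% at widths of 5000, 6000 and 8000 bp, 19.9% with Spin1 peaks joined over gaps of up to 500 bp and 6.15% with the highest-scoring 50%, so it depends on small, weak and closely spaced peaks. The covered share (65.1%) was 63.9% at 8000 bp, 62.4% with H3K4me3 peaks joined and 60.3% with the highest-scoring 50%. The Spin1 peak width (3285 bp) was 2915.5 bp at 8000 bp, 3102 bp with H3K4me3 peaks joined, 3949 bp with Spin1 peaks joined and 3944 bp with the highest-scoring 50%. The center position (721 bp) was 825 and 1070 bp at 6000 and 8000 bp, 786 bp with protein-coding transcripts, 560 bp with the highest-scoring 50%, 983.5 bp with 1 gene and 997 bp from the transcript that covers most of the domain. The difference at the TSS (22.6 points) was 23.7 at 5000 bp, 21.5 with protein-coding transcripts and 42.3 with the highest-scoring 50%. CpG content (2.96) was 3.03 and 2.76 at 5000 and 8000 bp. Listed genes with a broad domain numbered 231 to 321. With 1 library per antibody and no read counts, neither the spread between cultures nor Spin1 below the peak threshold can be judged.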
